A study of Mus musculus with 11 samples.

Results

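Transcripts of 10 antioxidant and NRF2 target genes were followed in primary mouse microglia, the immune cells of the brain, that had been kept with or without neurons. The 10 genes were taken by symbol from the table of raw counts, which holds 16934 genes, and all 10 had enough counts to be tested. Sod2 and Gpx1 encode enzymes that remove superoxide and peroxides. Hmox1 and Nqo1 encode enzymes of heme breakdown and quinone reduction, Gclc, Gclm and Slc7a11 serve glutathione supply, and Txnrd1, Srxn1 and Prdx1 serve the thioredoxin and peroxiredoxin cycle.

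The series comprised 11 libraries. Microglia co-cultured with fibril-loaded neurons gave 4 libraries: primary cortical neurons on day 14 in vitro had taken up Atto488-labelled α-synuclein fibrils at 0.1 µM over 16 h and were washed before 6 h of contact. Microglia co-cultured for 6 h with untreated neurons gave 3 libraries, and microglia alone gave 4. All microglia were from C57BL/6 pups aged P0 to P3, had been cultured for 7 to 10 days and were not passaged, and the labels give no transgene or mutation in any group. These are microglia of newborn mice grown in serum-containing medium, and the labels leave unsaid how they were parted from the neurons before RNA extraction. Whether replicate libraries are separate cultures is also not said in the labels, and p-values therefore describe the spread among these libraries, technical or not. Libraries are numbered within each group in the order of deposition.

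NRF2, encoded by Nfe2l2, is a transcription factor that is held in the cytoplasm and degraded with the help of Keap1. When oxidants or electrophiles modify Keap1, NRF2 reaches the nucleus, pairs with a small MAF protein and binds antioxidant response elements (AREs) near genes for glutathione, thioredoxin, heme and quinone metabolism. Sod2, the mitochondrial superoxide dismutase, is also a well-known target of NF-κB in cells of the immune system, and α-synuclein aggregates are a hallmark of Parkinson's disease.

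Promoter windows of 8 of the 10 genes were found in the RefSeq table of build GRCm38.p6, in which a window runs from 250 bases before a transcription start to 50 after it. Hmox1 and Gclc had no window there and were not searched. The windows were searched on both strands for the ARE core TGACNNNGC and for the related AP-1 letters TGANTCA, a match of which can lie inside an ARE. Among all 32851 windows of the table, 12.4% held the ARE core and 7.81% the AP-1 letters. Of the 8 genes, 4 had an ARE core in a window, namely Gclm, Txnrd1, Srxn1 and Prdx1, and Srxn1 and Prdx1 also had AP-1 matches. Counted by window, 4 of the 10 windows of these 8 genes held the core. In Srxn1 the core lay at bases 29 to 37 after the start and AP-1 matches lay at bases -102 to -96 and -45 to -39. The 250 bases before the start are shown for 3 genes with a core and for Sod2. Sod2 had neither set of letters in its window, and the same held for Nqo1, Slc7a11 and Gpx1. The sequences are from RefSeq, 5′ to 3′ on the gene's own strand, with matches in capitals.
Sod2, chr17:13007589-13007838, plus strand: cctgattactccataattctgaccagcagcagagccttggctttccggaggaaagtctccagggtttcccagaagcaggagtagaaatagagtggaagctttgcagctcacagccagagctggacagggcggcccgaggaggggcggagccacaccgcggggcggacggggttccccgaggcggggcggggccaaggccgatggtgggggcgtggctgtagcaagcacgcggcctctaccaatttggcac
Prdx1, chr4:116685349-116685598, plus strand: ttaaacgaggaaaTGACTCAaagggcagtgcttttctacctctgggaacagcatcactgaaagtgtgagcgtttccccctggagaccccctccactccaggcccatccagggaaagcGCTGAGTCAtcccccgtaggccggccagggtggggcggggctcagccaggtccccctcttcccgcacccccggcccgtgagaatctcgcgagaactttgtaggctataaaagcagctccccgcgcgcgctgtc
Txnrd1, 1 of its 3 windows, chr10:82858956-82859205, plus strand: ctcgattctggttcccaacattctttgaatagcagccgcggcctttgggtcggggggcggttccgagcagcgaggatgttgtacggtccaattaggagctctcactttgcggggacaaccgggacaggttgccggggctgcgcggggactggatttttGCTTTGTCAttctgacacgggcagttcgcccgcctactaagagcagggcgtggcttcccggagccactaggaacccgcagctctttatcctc
Gclm, chr3:122245307-122245556, plus strand: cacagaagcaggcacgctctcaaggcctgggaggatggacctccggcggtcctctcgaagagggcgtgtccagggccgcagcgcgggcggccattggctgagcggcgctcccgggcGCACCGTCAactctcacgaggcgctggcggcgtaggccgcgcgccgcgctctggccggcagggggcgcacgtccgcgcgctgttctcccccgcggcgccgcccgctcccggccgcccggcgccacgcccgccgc
The capitals of Gclm and Txnrd1 are ARE cores on the opposite strand, at bases -134 to -126 and -92 to -84 from the start. In Prdx1 the first capitals are an AP-1 match at bases -237 to -231. The second stretch is an ARE core on the opposite strand at -133 to -125 that contains an AP-1 match at -131 to -125. A match describes the letters of the window and does not show that a factor binds there. Sites outside the windows were not searched, so a window without a match does not show that a gene lacks an ARE.

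Library totals were 8253070 to 14844071 counts with fibril-loaded neurons, 10925771 to 16802451 counts with untreated neurons and 10700940 to 14541179 counts in microglia alone. The 14 markers of microglia and macrophages, among them Csf1r, C1qa and Trem2, were detected in every group. Their summed level was 14317 to 20531 CPM (counts scaled to library size) with fibril-loaded neurons, 16472 to 20380 CPM with untreated neurons and 13289 to 14210 CPM in microglia alone. The 16 neuron markers summed to 777 to 1190.3 CPM with fibril-loaded neurons, 610 to 876 CPM with untreated neurons and 1287 to 1549.6 CPM in microglia alone, and Snap25 and Gad1 were at 0 in both co-cultures. Most of these sums was Basp1, and the other 15 neuron markers summed to 8.63 to 51.6 CPM with fibril-loaded neurons, 1.07 to 30.1 CPM with untreated neurons and 80.2 to 190.3 CPM in microglia alone. Astrocyte marker sums overlapped, with means of 63.0 CPM with fibril-loaded neurons, 51.2 CPM with untreated neurons and 25.5 CPM in microglia alone. For oligodendrocyte markers these means were 169.8, 248.6 and 161.6 CPM. Endothelial and fibroblast marker sums averaged lower in both co-cultures, and neutrophil and monocyte sums higher, at 13.3 CPM or less. Rn45s, the ribosomal RNA precursor, took 11 to 17% of counts with fibril-loaded neurons, 10.7 to 15.7% with untreated neurons and 14 to 24.8% in microglia alone. The part of these differences in the results below was not tested, except where a value without them is given.

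Sod2 was higher in both co-cultures than in microglia alone, by 5.64- to 5.66-fold, and was the 1 gene of the 10 that passed the test. Hmox1, Txnrd1, Gpx1 and, with wide intervals, Slc7a11 also had higher means with neurons, as did Gclm and Gclc by less. None of these passed in this test, which models group alone. With a block for sets read from serial numbers in the sample titles, Hmox1 passed in both comparisons with microglia alone. The edgeR adjusted p was then 0.00488 with fibril-loaded and 0.0423 with untreated neurons. Between fibril-loaded and untreated neurons no difference passed for any of the 10. These comparisons share libraries: the microglia alone libraries are the reference of both co-cultures, so the 2 differences from them are not independent.

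**Figure D1:**
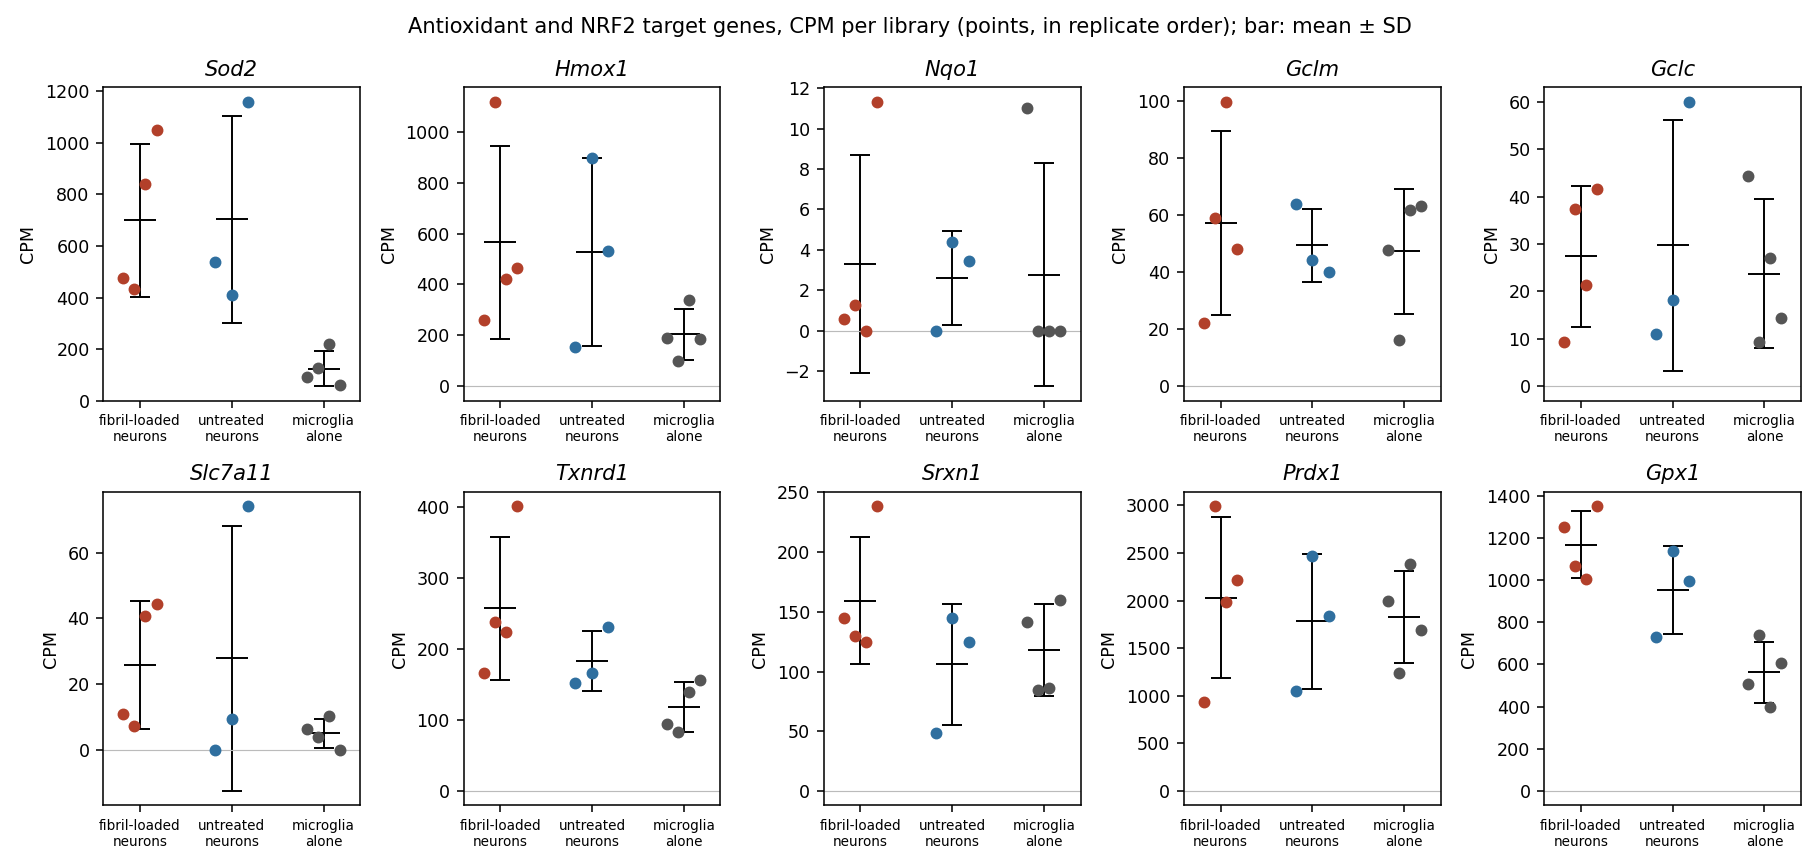
CPM (scaled to TMM-adjusted library size) of the 10 genes in each library, as points in replicate order from left to right, with the mean and SD of each group as bars. Each panel has its own axis. The 7 co-culture points of Sod2 lie at 412 CPM or more and the 4 points of microglia alone at 219.6 CPM or less, while the groups overlap for Hmox1, Prdx1, Srxn1 and the glutathione genes.

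Sod2 (chromosome 17, 13007839 to 13018119, plus strand in GRCm38.p6, the build of all positions here) converts superoxide in mitochondria to hydrogen peroxide. It stood at 475, 435, 841 and 1051 CPM in the 4 libraries with fibril-loaded neurons, at 537, 412 and 1161 CPM in the 3 with untreated neurons, and at 89.6, 127, 219.6 and 60.4 CPM in the 4 of microglia alone. Both co-cultures lay wholly above microglia alone, and the co-cultures overlapped each other, with the highest single value in an untreated-neuron library. It averaged 700.2 ± 297 CPM with fibril-loaded neurons, 703 ± 401 CPM with untreated neurons and 124 ± 69.3 CPM in microglia alone (mean ± SD here and below, over 4, 3 and 4 libraries).

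By edgeR's quasi-likelihood test over all 11276 genes tested, with Benjamini-Hochberg (BH) adjustment, Sod2 rose with untreated neurons by a log2 fold change of 2.50 (SE 0.43, 95% interval 1.61 to 3.39, adjusted p 0.00559) against microglia alone. It rose with fibril-loaded neurons by 2.50 on the log2 scale (SE 0.41, interval 1.64 to 3.35, edgeR adjusted p 0.00486) against the same microglia alone libraries. As folds these were 5.66 with untreated and 5.64 with fibril-loaded neurons. Ordered by p, Sod2 was gene 16 of the comparison with untreated neurons and gene 11 of that with fibril-loaded neurons. Sod2 passed in every alternative fit run, 16 for untreated neurons with log2 values of 1.93 to 2.93 and 17 for fibril-loaded neurons with values of 2.23 to 2.94. With libraries scaled to the microglia and macrophage genes, whose sum was itself higher in co-culture, Sod2 differed by 2.15 with untreated and 2.24 with fibril-loaded neurons.

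Between fibril-loaded and untreated neurons, Sod2 differed by a log2 of -0.01 (SE 0.42). The 95% interval of that difference, -0.88 to 0.86, leaves room for a change of either sign smaller than 2-fold. In these bulk libraries, more microglia that carry a transcript and more transcript per cell cannot be told apart.

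Gpx1, the main cytosolic glutathione peroxidase, takes the next step by reducing hydrogen peroxide to water, and its gene lies on chromosome 9, 108339080 to 108340342, plus strand. Its libraries gave 1249, 1064, 1006 and 1349.9 CPM with fibril-loaded neurons, 728, 1137 and 997 CPM with untreated neurons and 509, 737, 398 and 607 CPM in microglia alone. All fibril-loaded libraries were above all libraries of microglia alone, and 1 untreated-neuron library, at 728 CPM, fell within the microglia alone range. It averaged 1167 ± 159.9 CPM with fibril-loaded neurons, 954 ± 208 CPM with untreated neurons and 563 ± 144 CPM in microglia alone. The log2 fold change against microglia alone was 1.05 with fibril-loaded neurons (SE 0.25, interval 0.52 to 1.58), and at an edgeR adjusted p of 0.1 it did not pass. With untreated neurons it was 0.76 (SE 0.27, interval 0.20 to 1.32, adjusted p 0.288). DESeq2 called the difference of fibril-loaded neurons from microglia alone at an adjusted p of 5.83e-04, and so did edgeR without a low-count filter at 0.0221. Over all alternatives its adjusted p ran from 5.83e-04 to 0.338. Between the co-cultures the log2 difference was 0.29 (SE 0.27, interval -0.28 to 0.86).

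Hmox1, which breaks heme down to biliverdin, iron and carbon monoxide, is among the most inducible NRF2 targets in macrophages (chromosome 8, 75093618 to 75100593, plus strand). It was at 260.3, 1118, 419.7 and 465 CPM with fibril-loaded neurons, at 156, 896 and 532 CPM with untreated neurons and at 191, 99.3, 340.2 and 185 CPM in microglia alone. The groups overlapped: the lowest library of each co-culture fell inside the range of microglia alone, and in each co-culture library 2 stood far above the others. It averaged 566 ± 379 CPM with fibril-loaded neurons, 528 ± 370.0 CPM with untreated neurons and 204 ± 100.1 CPM in microglia alone, and the SD was 66.9% of the mean with fibril-loaded and 70.1% with untreated neurons. Against microglia alone the log2 fold change was 1.47 with fibril-loaded neurons (SE 0.47, interval 0.50 to 2.45) and 1.37 with untreated neurons (SE 0.49, interval 0.34 to 2.40). The edgeR adjusted p was 0.279 with fibril-loaded and 0.311 with untreated neurons, so neither passed. Without a low-count filter both passed (2.72e-04 with fibril-loaded and 0.0021 with untreated neurons). Both also passed with a block for sets of libraries read from serial numbers in the sample titles (0.00488 with fibril-loaded and 0.0423 with untreated neurons), and over all alternatives adjusted p ran from 2.72e-04 to 0.730 with fibril-loaded and from 0.0021 to 0.593 with untreated neurons. Fibril-loaded and untreated neurons differed by a log2 of 0.10 (SE 0.50, interval -0.93 to 1.13).

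Nqo1 reduces quinones and is a classical NRF2 target in liver and epithelia (chromosome 8, 107388225 to 107403205, minus strand). It was barely detected here, with 8, 11, 0 and 171 counts in the libraries with fibril-loaded neurons, 0, 49 and 58 with untreated neurons and 141, 0, 0 and 0 in microglia alone. The 2 highest libraries, at 11.3 CPM with fibril-loaded neurons and 11.04 CPM in microglia alone, stood in different groups and are the 2 libraries of 1 serial-number set. A count of 0, found in 5 libraries, allows a level of up to 0.181 to 0.298 CPM, taking 3 counts as the limit, which covers counting error only. Standard errors of its log2 fold changes were 2.70 to 2.94, so the data do not resolve a difference between any 2 groups.

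Gclc and Gclm encode the catalytic and the modifier subunit of glutamate-cysteine ligase, the rate-limiting enzyme of glutathione synthesis. Gclc lies on chromosome 9, 77754535 to 77794489, plus strand, and Gclm on chromosome 3, 122245487 to 122267215, plus strand. Gclm stood at 22.1, 58.9, 99.8 and 48.2 CPM with fibril-loaded neurons, 64.0, 44.2 and 40.2 CPM with untreated neurons and 47.9, 16.4, 61.7 and 63.4 CPM in microglia alone. Its highest and its second lowest value of all libraries were both with fibril-loaded neurons, and the groups overlapped throughout. The log2 differences of Gclm were 0.21 (SE 0.54) between the co-cultures, 0.06 (SE 0.53) for untreated neurons against microglia alone and 0.27 (SE 0.49) for fibril-loaded neurons against microglia alone. Gclc gave 9.31, 37.4, 21.3 and 41.7 CPM with fibril-loaded neurons, 10.9, 18.1 and 60.0 CPM with untreated neurons and 44.3, 9.32, 27.1 and 14.4 CPM in microglia alone. Each group held values of Gclc both below 15 CPM and above 40 CPM, and its 3 log2 differences lay between -0.12 and 0.32 with SEs of 0.72 to 0.77.

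Slc7a11 is the light chain of system xc-, which imports cystine for glutathione synthesis and exports glutamate (chromosome 3, 50364936 to 50499087, minus strand). It was found at 10.97, 7.24, 40.6 and 44.4 CPM with fibril-loaded neurons, 0, 9.59 and 74.1 CPM with untreated neurons and 6.34, 3.87, 10.4 and 0 CPM in microglia alone. The libraries of each co-culture split into low values near those of microglia alone and high values of 40.6 CPM or more. The log2 fold changes were 2.33 (SE 1.39, interval -0.56 to 5.21, edgeR adjusted p 0.818) with fibril-loaded and 2.44 (SE 1.45, interval -0.58 to 5.45, adjusted p 0.618) with untreated neurons. Between the co-cultures the log2 difference was -0.11 (SE 1.42).

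Txnrd1, the cytosolic thioredoxin reductase, returns oxidised thioredoxin to its active form with NADPH (chromosome 10, 82833951 to 82897724, plus strand). Its values were 167, 238, 224 and 402 CPM with fibril-loaded neurons, 152, 167 and 232 CPM with untreated neurons and 94.8, 82.6, 139 and 157 CPM in microglia alone. Every fibril-loaded library exceeded every library of microglia alone, by a narrow margin between 167 and 157 CPM, and the lowest untreated-neuron library did not. It averaged 258 ± 101 CPM with fibril-loaded neurons, 184 ± 42.3 CPM with untreated neurons and 118 ± 35.5 CPM in microglia alone, and neither step passed the test. The log2 differences were 0.49 (SE 0.34) for fibril-loaded against untreated neurons, 0.63 (SE 0.34, edgeR adjusted p 0.538) for untreated neurons against microglia alone and 1.12 (SE 0.32, interval 0.46 to 1.79, adjusted p 0.185) for fibril-loaded neurons against microglia alone. DESeq2 called this last difference at an adjusted p of 0.0399, at the low end of a range of 0.0399 to 0.597 over its alternatives. Txnrd1 overlaps Eid3 on the same strand and a gene model on the other, both in the count table, so reads may be shared among them.

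Srxn1, or sulfiredoxin, repairs peroxiredoxins that peroxide has over-oxidised, and Prdx1 is an abundant cytosolic peroxiredoxin. They lie on chromosome 2, 152105524 to 152111376, plus strand, and chromosome 4, 116685599 to 116700000, plus strand. Srxn1 was at 145, 129, 125 and 238 CPM with fibril-loaded neurons, 48.6, 145 and 125 CPM with untreated neurons and 142, 84.2, 85.8 and 159.9 CPM in microglia alone. Prdx1 was at 934, 2992, 1982 and 2215 CPM with fibril-loaded neurons, 1051, 2463 and 1835 CPM with untreated neurons and 1991, 1240.1, 2380.1 and 1689 CPM in microglia alone. For Prdx1 the 3 groups covered much the same range. For Srxn1 they overlapped, with the highest value, 238 CPM, in a fibril-loaded library and the lowest, 48.6 CPM, in an untreated-neuron library. The log2 differences of Srxn1 were 0.59 (SE 0.39) between the co-cultures, -0.15 (SE 0.39) for untreated neurons and 0.43 (SE 0.36) for fibril-loaded neurons against microglia alone. For Prdx1 they were 0.19 (SE 0.35), -0.03 (SE 0.35) and 0.15 (SE 0.32) in the same order, with intervals that lay between -0.76 and 0.92, short of a 2-fold change either way.

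**Figure D2:**
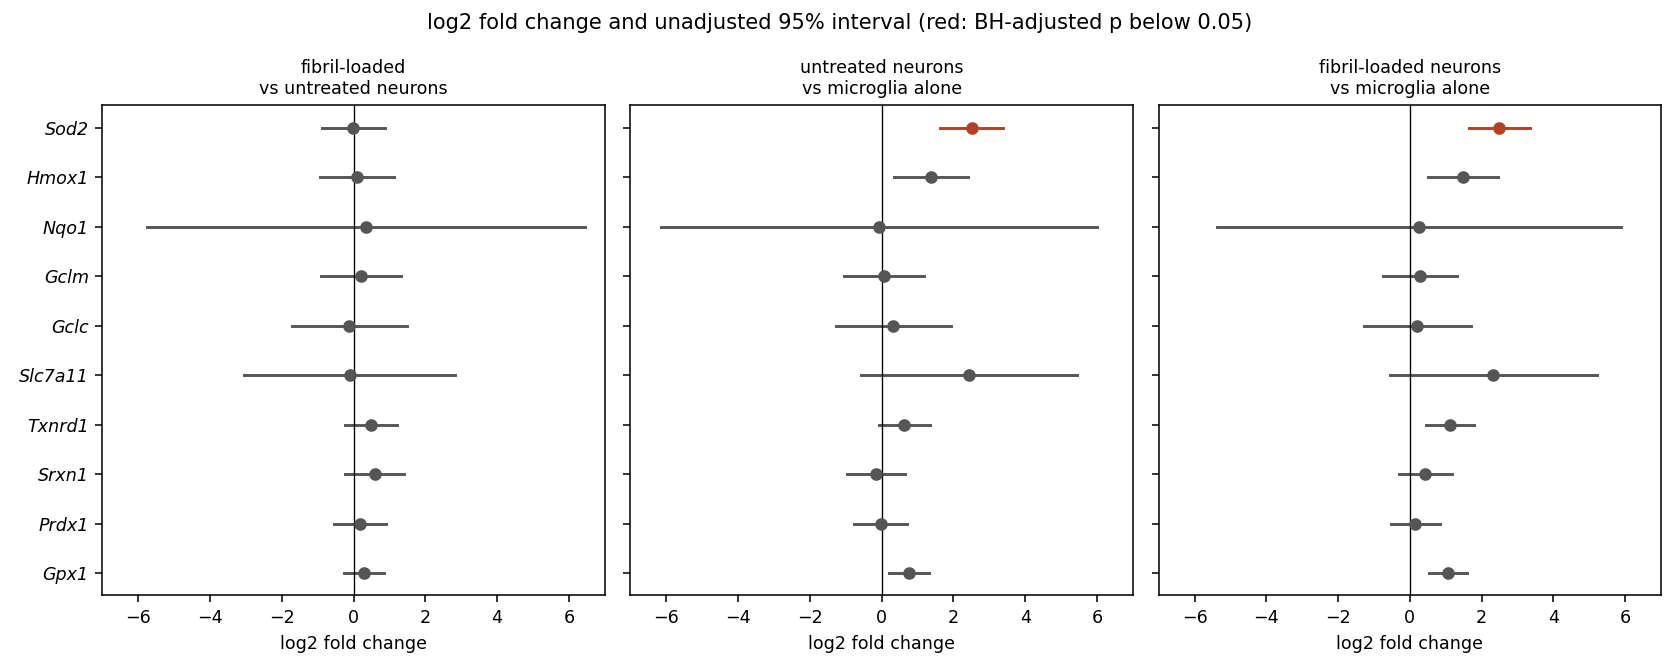
Log2 fold change of each gene (points) with its unadjusted 95% interval (lines) in the 3 comparisons, with values passing a BH-adjusted p of 0.05 in red. Sod2 is red in both comparisons with microglia alone, the intervals of Hmox1 and Gpx1 lie above 0 in both without passing the adjustment, and Nqo1 and Slc7a11 have the widest intervals.

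Counted over the 10 genes, fibril-loaded against untreated neurons gave 0 called genes, against a background of 0% of all genes tested. At an unadjusted p below 0.05, 0 of the 10 and 3.95% of all genes were reached in edgeR. DESeq2 called 202 of the 12335 genes it tested and 0 of the 10. Untreated neurons against microglia alone gave 1 gene that rose, Sod2, where 0.461% of all genes tested rose, and 3 of 10 reached an unadjusted p below 0.05, as did 10.3% of all genes. Fibril-loaded neurons against microglia alone also gave 1, again Sod2, where 0.266% of all genes rose, and 4 of 10 reached an unadjusted p below 0.05, as did 8.14% of all genes. CPM ranges lay wholly above microglia alone for 1 of 10 genes with untreated neurons (4.9% of all genes) and for 3 of 10 with fibril-loaded neurons (2.7%), namely Sod2, Txnrd1 and Gpx1. No gene of the 10 had ranges apart between the co-cultures (4.68% of all genes in either direction).

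The median log2 fold change of the 10 genes was 0.20 for fibril-loaded against untreated neurons, 0.48 for untreated neurons against microglia alone and 0.74 for fibril-loaded neurons against microglia alone, and over all genes it was 0, -0.05 and -0.04. Positive values were found for 7, 7 and 10 of the 10 genes in these comparisons, and for 49.8%, 47.7% and 47.9% of all genes. When libraries were scaled to the microglia and macrophage genes, the median of all genes became 0.09, -0.48 and -0.38, and Gclm, Gclc and Prdx1 then turned negative with fibril-loaded neurons against microglia alone, as did Gclm and Gclc with untreated neurons.

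The other genes of the pathway were read from 8 lists with 96 genes, of which 95 were in the count table and 84 were tested. In them 0, 1 and 0 genes were called in the 3 comparisons, and the medians of their log2 fold changes were 0.09, 0.06 and 0.08 for fibril-loaded against untreated neurons, untreated neurons against microglia alone and fibril-loaded neurons against microglia alone. At an unadjusted p below 0.05 the same comparisons gave 5, 14 and 15 of the 84, where 3.95%, 10.3% and 8.14% of all genes reached it. Nadk, the kinase that turns NAD into NADP and so supplies the NADPH that these enzymes use, was the gene called. Its libraries gave 179, 179.9, 297 and 264 CPM with fibril-loaded neurons, 283, 179 and 319 CPM with untreated neurons and 78.8, 73.3, 136 and 72.2 CPM in microglia alone, so both co-cultures lay above microglia alone. Nadk rose with untreated neurons by a log2 of 1.53 (SE 0.33, edgeR adjusted p 0.0355). With fibril-loaded neurons the log2 difference was 1.35 (SE 0.31, adjusted p 0.0782), and the difference between the co-cultures was -0.18 (SE 0.33). Of 9 tested genes in the NADPH supply list, 3 were positive for untreated neurons against microglia alone (median -0.08). For fibril-loaded neurons 4 were (median -0.21). Pgls, also listed, averaged 22.9 CPM with fibril-loaded neurons, 67.5 CPM with untreated neurons and 68.3 CPM in microglia alone. Its fibril-loaded libraries lay wholly below both other groups, and neither difference passed. Against microglia alone its log2 was -1.58 (SE 0.48, edgeR adjusted p 0.241).

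Among the regulators of NRF2, none of 10 was called in any comparison. Nfe2l2 itself averaged 546 ± 136 CPM with fibril-loaded neurons, 592 ± 159.6 CPM with untreated neurons and 558 ± 130.0 CPM in microglia alone. Keap1, the inhibitor, averaged 118 ± 36.9 CPM with fibril-loaded neurons, 124 ± 38.0 CPM with untreated neurons and 188 ± 27.5 CPM in microglia alone, with a log2 difference of -0.67 (SE 0.31, edgeR adjusted p 0.594) between fibril-loaded neurons and microglia alone. Sqstm1, whose product p62 binds Keap1 and is itself an NRF2 target, averaged 749 ± 127 CPM with fibril-loaded neurons, 721 ± 34.9 CPM with untreated neurons and 494 ± 218 CPM in microglia alone. Mafg, a small MAF partner of NRF2, differed by a log2 of 0.88 (SE 0.34, adjusted p 0.374) between untreated neurons and microglia alone.

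In the glutathione list 17 of 25 genes were tested and none was called. Slc3a2, the heavy chain that pairs with Slc7a11, was at 568, 684, 529.7 and 653 CPM with fibril-loaded neurons, 291, 663 and 619.9 CPM with untreated neurons and 319, 195, 321 and 301 CPM in microglia alone. The fibril-loaded libraries all lay above those of microglia alone, and 1 untreated-neuron library did not. Its log2 differences from microglia alone were 1.10 (SE 0.28, edgeR adjusted p 0.117) with fibril-loaded and 0.89 (SE 0.30, adjusted p 0.251) with untreated neurons. With the block for serial sets the difference with fibril-loaded neurons was called (log2 1.14, edgeR adjusted p 0.0302). Of 16 genes in the thioredoxin and peroxiredoxin list none was called, and Txn1, the thioredoxin that Txnrd1 reduces, averaged 352 ± 50.6 CPM with fibril-loaded neurons, 387 ± 41.3 CPM with untreated neurons and 179 ± 129.5 CPM in microglia alone.

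The NADPH oxidase of phagocytes makes superoxide, the substrate of superoxide dismutases, and none of its 7 tested list members was called. Ncf1, the organiser subunit p47phox, averaged 778 ± 54.2 CPM with fibril-loaded neurons, 776 ± 53.2 CPM with untreated neurons and 416 ± 158 CPM in microglia alone, and both co-cultures lay wholly above microglia alone. The log2 differences of Ncf1 were 0.90 (SE 0.26, edgeR adjusted p 0.194) with fibril-loaded and 0.90 (SE 0.28, adjusted p 0.19) with untreated neurons. Ncf4, the subunit p40phox, differed from microglia alone by a log2 of 1.23 (SE 0.32, adjusted p 0.136) with fibril-loaded and 0.94 (SE 0.34, adjusted p 0.311) with untreated neurons. Cybb, the catalytic subunit, averaged 1004 ± 430.1 CPM with fibril-loaded neurons, 975 ± 191 CPM with untreated neurons and 1025 ± 485 CPM in microglia alone.

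The remaining lists held no called gene other than Nadk. In the list of other NRF2 targets, 10 of 12 genes were tested. Against microglia alone 5 of them were positive with untreated and 4 with fibril-loaded neurons, with list medians of -0.03 and -0.04. Abcc1 differed by a log2 of 1.07 (SE 0.49, edgeR adjusted p 0.461) with untreated and 1.02 (SE 0.46, adjusted p 0.588) with fibril-loaded neurons. For Marco these were 1.49 (SE 0.79, adjusted p 0.533) and 1.59 (SE 0.75, adjusted p 0.606). In each comparison 1 gene of the list lay wholly below microglia alone. Of 4 tested genes for superoxide and hydrogen peroxide removal beside Sod2 and Gpx1, the cytosolic dismutase Sod1 averaged 346 ± 60.9 CPM with fibril-loaded neurons, 308 ± 46.4 CPM with untreated neurons and 375 ± 89.2 CPM in microglia alone. Catalase (Cat) averaged 139.9 ± 31.2 CPM with fibril-loaded neurons, 135 ± 36.7 CPM with untreated neurons and 135 ± 54.8 CPM in microglia alone. Among 11 heme and iron genes, the iron exporter Slc40a1 (ferroportin) averaged 26.5 ± 25.5 CPM with fibril-loaded neurons, 30.6 ± 14.5 CPM with untreated neurons and 88.3 ± 29.9 CPM in microglia alone. Both co-cultures lay wholly below microglia alone, and the edgeR adjusted p was 0.448 with fibril-loaded and 0.477 with untreated neurons. Slc11a1, a metal transporter of phagosomes, averaged 142 ± 79.5 CPM with fibril-loaded neurons, 179 ± 69.1 CPM with untreated neurons and 59.2 ± 39.9 CPM in microglia alone, with an edgeR adjusted p of 0.392 with fibril-loaded and 0.157 with untreated neurons. With the block for serial sets the difference with untreated neurons was called (log2 1.69, edgeR adjusted p 0.0340).

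**Figure D3:**
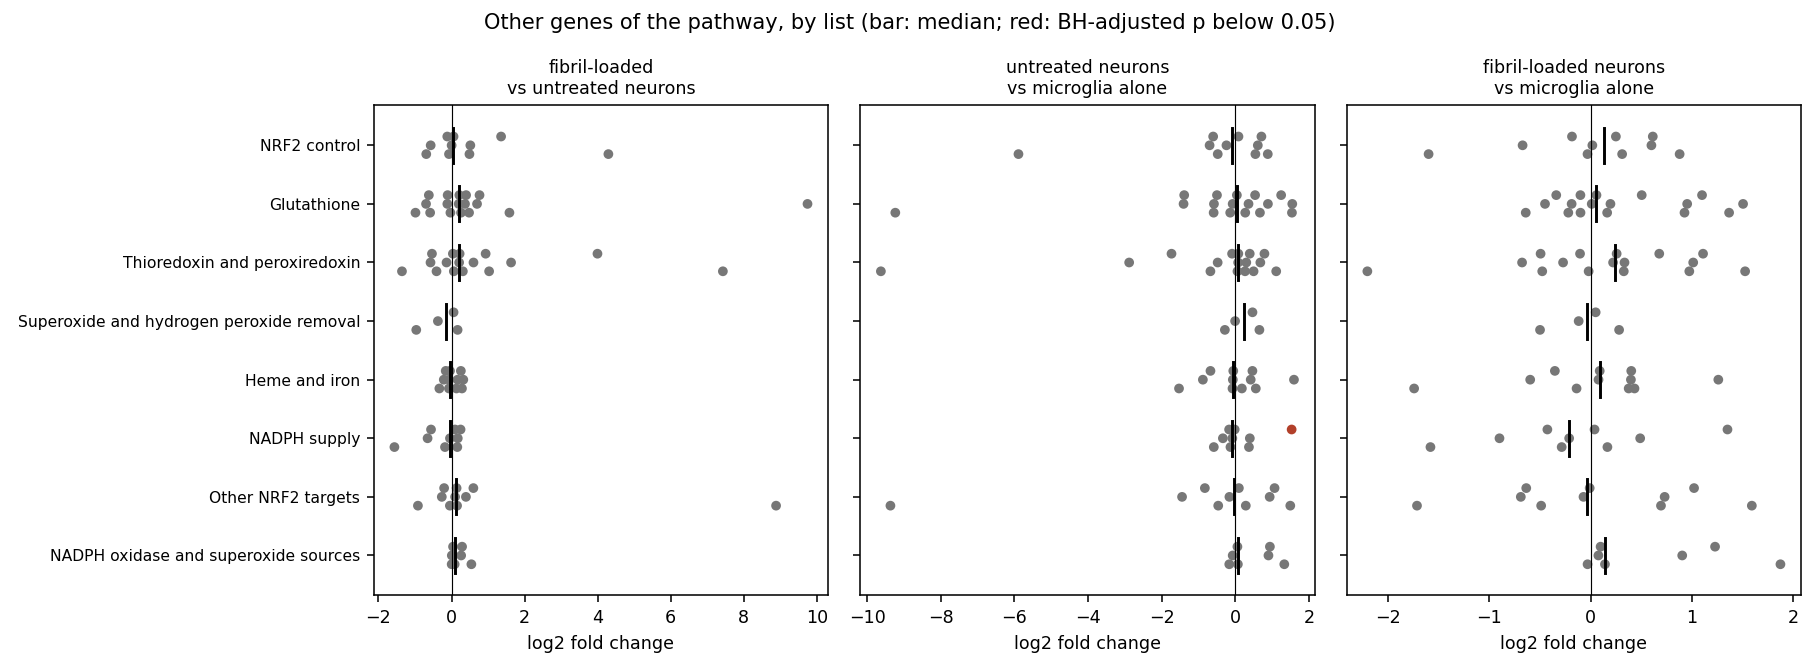
Log2 fold change of each tested gene of the 8 other pathway lists (points) in the 3 comparisons, with the list median as a bar and the gene called in red. Axes differ between panels. The medians lie near 0 in every panel, and Nadk, in the NADPH supply list for untreated neurons against microglia alone, is the red point.

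Within groups, most of the 10 genes ordered the libraries differently. The order of the libraries was compared between pairs of the 9 genes without tied values. Of 36 pairs, 1 had the same order in all 3 groups, Hmox1 with Prdx1, and 2 more pairs had it in 2 groups. With fibril-loaded neurons both genes descended in the order library 2, 4, 3 and 1, with untreated neurons in the order 2, 3 and 1, and in microglia alone in the order 3, 1, 4 and 2. Written as serial-number sets, this was the same order in every group, set 3, 1, 4 and 2, with no set 1 library among untreated neurons. If libraries of 1 set share a preparation, which the labels do not say, the 3 groups are not separate agreements. Among 8537 other tested genes without ties, 6 shared this order with Hmox1, Prdx1 included, or 0.0703%. Sod2 had another order: in both co-cultures its lowest library was the one in which Hmox1 and Prdx1 were highest, while in microglia alone its highest library, 3, was also theirs. Over the 11 libraries Hmox1 spanned 11.3-fold and Prdx1 3.20-fold.

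**Figure D4:**
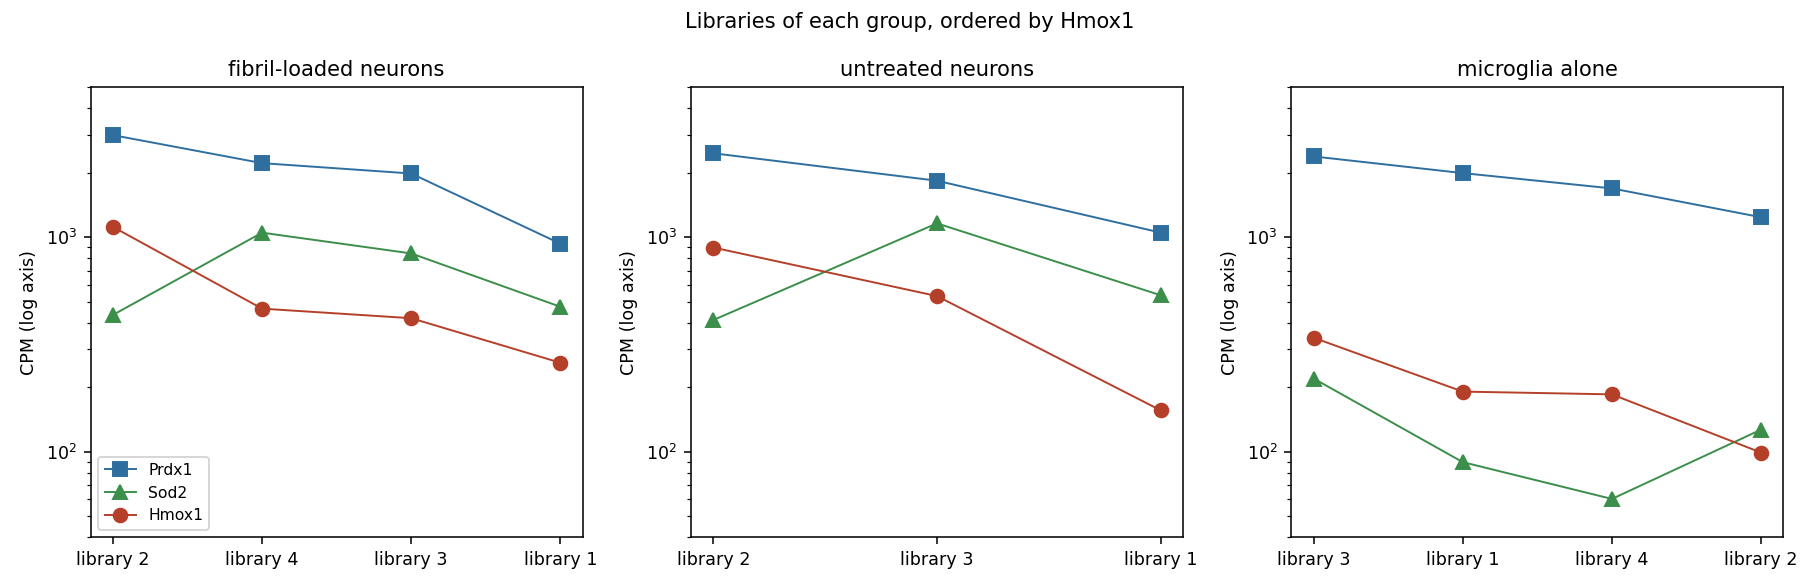
CPM (log axis) of Prdx1, Sod2 and Hmox1 in each library, with the libraries of each group ordered by Hmox1 from high to low. The lines of Prdx1 and Hmox1 descend together in all 3 groups, and Sod2 is lowest in the co-culture libraries at the left, at 435 CPM with fibril-loaded and 412 CPM with untreated neurons.

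Single libraries stood out over the set of genes. With fibril-loaded neurons, library 4 was above its group median for 9 of the 10 genes and held the highest value of all 11 libraries for 4 of them. With untreated neurons, library 1 was above its group median for 1 gene, was at 0 for 2 genes and held the lowest Srxn1 of the 11 libraries. In microglia alone, library 2 was above its group median for 2 genes.

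Genes whose profile was most like that of Sod2 were found over the 11 libraries among 3071 tested genes of at least 50 CPM on average, by the root mean square difference of centred log2(CPM + 1) values. The nearest was Tlr2, a receptor for bacterial lipopeptides, at 0.37, followed by Pik3r5, a regulatory subunit of phosphoinositide 3-kinase gamma, at 0.52, and the amino acid transporter Slc7a8 at 0.55, where the median over candidates was 1.45. Tlr2 averaged 279 ± 108 CPM with fibril-loaded neurons, 294 ± 123 CPM with untreated neurons and 61.0 ± 32.3 CPM in microglia alone. The nearest to Hmox1 were Ezr, which encodes the membrane linker ezrin, at 0.49, Enc1 at 0.53 and Slc3a2 at 0.56, with a median over candidates of 1.14. All points share libraries, depth and group differences, so these distances describe the profiles only.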

How the data were processed

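Per the labels' protocols, RNA from 11 samples was made into QuantSeq 3′ mRNA libraries. The authors deposited raw counts per gene symbol; STAR, Partek, DESeq2 and the build mm10 are named, without versions, in the submitters' processing notes, and use of strand in counting is not given in the sources used here. A normalized table was not used. Members and lists were chosen with earlier results of these data known.

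The deposited counts went into edgeR 4.0.16 (R 4.3.3) with filterByExpr, TMM scaling and a two-sided quasi-likelihood test, in a model of group alone over 11 libraries. BH adjustment was over 11276 genes, with a threshold of 0.05. CPM use TMM-adjusted library sizes. Intervals are unadjusted 95% intervals. The common biological coefficient of variation was 1.15. The code was tested on simulated data. Of the lists, genes were named that passed or had the 2 smallest p per comparison at 10 CPM or more, and some are not printed; Nfe2l2, Sod1, Cat and Cybb were named outside that rule, for their roles. Alternatives were RLE scaling, no filter, a mean of 5 CPM, DESeq2 1.42.0, 2 groups only, no Rn45s, each library left out, and, added after the data were seen, microglia-gene scaling, each group's library with fewest genes left out, and a block.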

Additional observations from a re-analysis of the deposited data

Results flagged for a closer look

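Nqo1, the quinone reductase gene, had 1 library far from the others of its group in 2 groups. With fibril-loaded neurons, library 4 stood at 11.3 CPM and the other 3 at 0.556, 1.28 and 0 CPM. In microglia alone, library 1 stood at 11.04 CPM and the other 3 at 0. Of 20 sets of 4 libraries examined, 10 genes in 2 groups, these 2 exceeded Dixon's 95% limit. For independent, normally distributed values chance gives about 1 in 20. Nqo1 lies near 0, and a group with 3 libraries at 0 exceeds the limit whatever the level of the other, so that rate does not apply here. The 2 libraries belong to the same serial-number set, so they need not be independent. With untreated neurons, where 3 libraries are too few for this check, the values were 0, 4.39 and 3.44 CPM.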

How the results depend on the processing

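Sod2 passed against microglia alone in all 16 alternatives for untreated and 17 for fibril-loaded neurons, and each library left out in turn kept the number of the 10 genes called at 0, 1 and 1 in the 3 comparisons. In untreated neurons against microglia alone, 2 of the 10 were called without a low-count filter (Sod2 and Hmox1), beside 234 of all 14106 genes then tested. In fibril-loaded neurons against microglia alone, 3 were called without a filter (Sod2, Hmox1 and Gpx1) and 3 with DESeq2 (Sod2, Gpx1 and Txnrd1). All genes called were then 164 of 14106 tested without a filter and 272 of 12335 tested with DESeq2. Of all 11276 genes tested in the main fit, 0, 72 and 36 were called in the 3 comparisons. For fibril-loaded against untreated neurons the count was 5 without a filter, 202 with DESeq2 and 1 without the library with fewest genes of each group. For untreated neurons against microglia alone it was 234 without a filter, 47 at a mean of 5 CPM, 493 with DESeq2, 123 with microglia-gene scaling, 29 without the library with fewest genes and 41 with the 2 groups only. For fibril-loaded neurons against microglia alone it was 164 without a filter and 272 with DESeq2. With a library left out these counts ran from 0 to 1, 32 to 76 and 23 to 42. The cause of these differences was not tested.

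Values near 0 changed sign. Between the co-cultures Sod2 became 0.0042 without a filter, 0.0039 without Rn45s, 0.092 with microglia-gene scaling and 0.0027 with the 2 groups only, and Hmox1 -0.094 without the libraries with fewest genes. For untreated neurons, microglia-gene scaling gave Gclm -0.37 and Gclc -0.034, and leaving out the libraries with fewest genes gave Nqo1 8.55, Gclm -0.15, Srxn1 0.30 and Prdx1 0.30. For fibril-loaded neurons against microglia alone, microglia-gene scaling gave Gclm -0.061, Gclc -0.11 and Prdx1 -0.19. With libraries left out in turn, for fibril-loaded against untreated neurons, the log2 ranges of genes that changed sign were Sod2 -0.28 to 0.56, Gclc -0.50 to 0.92, Slc7a11 -0.68 to 2.43, Hmox1 -0.47 to 0.72, Prdx1 -0.062 to 0.49, Gclm -0.20 to 0.48 and Nqo1 -2.07 to 0.94. For untreated neurons against microglia alone, the log2 ranges of genes that changed sign were Nqo1 -0.68 to 8.04, Gclm -0.22 to 0.24, Srxn1 -0.45 to 0.19, Prdx1 -0.34 to 0.24, Gclc -0.71 to 0.81 and Slc7a11 -0.10 to 3.04. For fibril-loaded neurons against microglia alone, the log2 ranges of genes that changed sign were Prdx1 -0.094 to 0.39, Gclm -0.14 to 0.54, Nqo1 -2.16 to 8.41 and Gclc -0.071 to 0.71.

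The labels give no replicate numbers, so no pairing is given by the design. As a hint from the serial numbers, the 4 sets were fitted as a replicate block, chosen after the data were seen. Deviations from group means correlated between libraries of 1 set by -0.11 to 0.30 (median 0.098, 10 pairs over 3118 genes). Between others they correlated by -0.22 to 0.20 (median -0.055, 30 pairs), and 9 of 20 best matches were within a set. The number of matches that chance would give was not worked out, so this check does not settle whether the sets are pairs. The levels of Xist and Ddx3y given under the other observations do follow the sets. The fit without a block, planned before the block was added, was kept as the main one. Under the block 2 of the 10 genes, Sod2 and Hmox1, were called in each comparison with microglia alone. Of all 11276 genes tested, 0.842% were then called with untreated and 0.585% with fibril-loaded neurons, in either direction. The edgeR adjusted p of Hmox1 was 0.00488 with fibril-loaded and 0.0423 with untreated neurons. Of the other pathway genes, Nadk and Slc11a1 were called with untreated neurons (adjusted p 0.0304 and 0.0340) and Slc3a2 with fibril-loaded neurons (0.0302) under the block. Under the block 66 of all genes were called for fibril-loaded neurons against microglia alone, and Nqo1 became -2.64, Gclm -0.10 and Slc7a11 0.58 between the co-cultures and Nqo1 6.75 for untreated neurons.

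Nqo1 and Slc7a11 had 0 counts in 5 and 2 libraries, and both were at 0 in the library with most counts, untreated-neuron library 1. All 10 genes are limited by the spread between libraries.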

Other observations

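The Hmox1 and Prdx1 order of libraries also ran alongside a sex-linked transcript. Xist, the RNA that silences 1 X chromosome in female cells, had 0 counts in library 1 with fibril-loaded neurons, library 1 with untreated neurons and library 2 of microglia alone, and stood at 133 to 337 CPM in the other 8 libraries. These 3 libraries had the lowest Hmox1 and Prdx1 of their groups. Xist and Tsix, which overlaps it on the other strand so that their reads cannot be told apart without strand, were the 2 tested genes at 0 in these 3 libraries and at 20 CPM or more in all others. Ddx3y, a gene of the Y chromosome, stood at 9.11 CPM in library 2 with fibril-loaded neurons, 14.4 CPM in library 2 with untreated neurons and 10.0 CPM in library 3 of microglia alone, the libraries highest in Hmox1 and Prdx1, and at 24.9 to 65.5 CPM elsewhere. Whether the sex of the pups has a part in the levels of Hmox1 or Prdx1 was not tested.

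Serial numbers in the sample titles step by 7 within every group and place the libraries in 4 sets, of which 1 has no untreated-neuron library. The 3 libraries without Xist form 1 set and the 3 lowest in Ddx3y another. Within sets, Hmox1 with fibril-loaded neurons differed from microglia alone by log2 ratios of 1.28, 1.39, 1.72 and 1.18, higher in 4 of 4 sets, and with untreated neurons by 0.65, 1.40 and 1.52, higher in 3 of 3. Among all genes tested, 7.73% and 12.7% were higher in every set in these comparisons. The ratios of Sod2 were 3.55, 1.90, 0.98 and 3.80 with fibril-loaded and 2.08, 0.91 and 4.27 with untreated neurons. Txnrd1 was also higher than in microglia alone in 4 of 4 and 3 of 3 sets, and Gpx1 in 4 of 4 and 2 of 3. Park7, the gene of DJ-1, averaged 61.9 ± 18.2 CPM with fibril-loaded neurons, 121 ± 32.8 CPM with untreated neurons and 87.5 ± 12.5 CPM in microglia alone. It was lower with fibril-loaded neurons in 3 of 3 sets than with untreated neurons and in 4 of 4 than in microglia alone, as were 10.6% and 8.76% of all genes tested in these comparisons, and passed in neither comparison (edgeR adjusted p 1 and 0.909).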
